A study of Mus musculus with 8 samples.

Results

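The R-spondins, their Lgr receptors and the E3 ligases that these act upon were examined in sorted growth plate cells from mice treated with a Hedgehog agonist. The 9 genes *Rspo1*, *Rspo2*, *Rspo3*, *Rspo4*, *Lgr4*, *Lgr5*, *Lgr6*, *Rnf43*, and *Znrf3* were taken by name, and all of them were among the 16536 genes counted. RNA was sequenced from mCherry+CD73+ cells of Pthrp-mCherry mice, in which mCherry reports expression of *Pthlh*, the gene of PTHrP. CD73 is a surface marker of the resting zone and of early proliferative cells. The study selected for it to leave out mCherry+ cells of the articular cartilage and perichondrium. SAG, a small-molecule agonist of Smoothened, was injected i.p. once daily into 4 mice, and 4 control mice received its vehicle DMSO. Injections ran from P30 to P36 according to the labels, the methods give days that are 1 day later, and all mice were sacrificed at P38. All 8 mice carried the mCherry reporter, and the cells of both femoral growth plates of a mouse were pooled into 1 library. The study used males and females without considering sex, and the labels used here do not give it per library.

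R-spondins are secreted proteins that strengthen Wnt signaling. They bind the receptors Lgr4, Lgr5, and Lgr6 together with the transmembrane ubiquitin ligases Rnf43 and Znrf3, which otherwise remove Frizzled receptors from the cell surface, so that the ligases are cleared and Frizzled accumulates. *Rnf43*, *Znrf3*, and *Lgr5* are themselves known as targets of β-catenin in other tissues, and Wnt signaling takes part in the maintenance and maturation of growth plate chondrocytes.

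Promoter windows of 250 bases before the transcription start, from RefSeq on GRCm38.p6, were matched for 5 of the 9 genes. Those of the ligand and the receptor with the smallest unadjusted p-values in their families, *Rspo4* and *Lgr4*, are shown with every CG dinucleotide in capitals, both on the plus strand of chromosome 2. The *Rspo4* window lies at chr2:151842677-151842926 and the *Lgr4* window at chr2:109917397-109917646.
*Rspo4*: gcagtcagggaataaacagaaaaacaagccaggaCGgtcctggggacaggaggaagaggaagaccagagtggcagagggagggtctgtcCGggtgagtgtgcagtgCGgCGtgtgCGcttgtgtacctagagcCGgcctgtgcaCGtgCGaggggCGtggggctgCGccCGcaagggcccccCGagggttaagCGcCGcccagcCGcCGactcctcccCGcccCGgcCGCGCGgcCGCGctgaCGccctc
*Lgr4*: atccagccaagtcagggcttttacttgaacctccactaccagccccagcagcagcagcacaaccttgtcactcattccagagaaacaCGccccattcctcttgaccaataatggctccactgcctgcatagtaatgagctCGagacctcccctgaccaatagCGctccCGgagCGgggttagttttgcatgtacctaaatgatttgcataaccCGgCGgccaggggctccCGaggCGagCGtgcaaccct
The *Rspo4* window held 24 CG dinucleotides at 69.6% GC and the *Lgr4* window held 10 at 55.6% GC, where the medians over 32817 windows of the same length were 6 CG dinucleotides and 52.4% GC. The letters CTTTG followed by 2 letters that are each A or T, which TCF and LEF factors of the β-catenin pathway are known to bind, were searched on both strands. They occurred in 0 of the 6 windows of these genes, of which *Rnf43* has 2, and in 14.8% of all windows. The letters GACCACCCA, bound by the GLI factors of the Hedgehog pathway and searched likewise, occurred in 0 of the 6 windows and in 0.225% of all windows.

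On GRCm38 (GENCODE M21), *Rspo1* lies on chromosome 4 from 124986430 to 125009099, *Rspo2* on chromosome 15 from 43020794 to 43170826, *Rspo3* on chromosome 10 from 29452416 to 29535867, and *Rspo4* on chromosome 2 from 151842927 to 151874668. Of the receptors, *Lgr4* lies on chromosome 2 from 109917647 to 110014257, *Lgr5* on chromosome 10 from 115450311 to 115587780, and *Lgr6* on chromosome 1 from 134983301 to 135105276. Both ligases lie on chromosome 11, *Znrf3* from 5276324 to 5444847 and *Rnf43* from 87662722 to 87735539.

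Between 24971992 and 46593090 counts were assigned to genes per library, so that 3 counts corresponded to between 0.067 and 0.114 CPM (a gene's reads relative to the TMM-scaled size of the library), a floor that covers counting error only. DMSO replicate 4 stood apart: 380 tested genes had a count of 0 in it and at least 30 counts in each of the other 7 libraries, against 0 to 14 such genes in any other library. The libraries also differed by treatment in their markers of growth plate chondrocytes and of neutrophils. The summed level of 10 chondrocyte markers was 44450 to 100200 CPM in DMSO-treated and 17260 to 48760 CPM in SAG-treated mice, and that of 8 neutrophil markers was 4222 to 12700 CPM and 24050 to 37950 CPM, of which edgeR called 6 genes higher. Of the gate's own genes, *Pthlh* was at 14.9 to 22.1 CPM in DMSO-treated and 18.4 to 29.9 CPM in SAG-treated mice, and *Nt5e*, which encodes CD73, was at 184.2 to 269.6 CPM and 148.7 to 174.0 CPM, without overlap (log2 fold change -0.51, edgeR, unadjusted p = 0.0178, adjusted p = 0.186). The part of these differences in the values of the 9 genes was not tested, and in sorted bulk RNA fewer cells of a type cannot be told apart from less RNA per cell.

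Among the ligands, *Rspo4* was at 12.9, 29.6, 12.3, and 0 CPM in DMSO replicates 1 to 4 and at 0.862, 1.88, 2.29, and 1.21 CPM in SAG replicates 1 to 4. *Rspo4* encodes an R-spondin known for its role in nail formation. The 3 DMSO libraries that held *Rspo4* reads lay above all 4 SAG libraries, and DMSO replicate 4, at 0 of 24971992 counts, lay below them, which makes the groups overlap. *Rspo4* was itself one of the 380 tested genes at 0 in DMSO replicate 4 with at least 30 counts in each of the other 7 libraries. The cause of its 0 there was not tested. Means and SDs over 4 mice were 13.7 ± 12.2 CPM for DMSO against 1.56 ± 0.645 CPM for SAG, and the log2 fold change was -3.13 with a 95% interval from -5.76 to -0.51 (edgeR's quasi-likelihood test, unadjusted p = 0.0234, adjusted p = 0.215). *Rspo4* therefore did not pass the threshold of 0.05 over all 15421 genes tested. Without DMSO replicate 4 its log2 fold change was -3.52 with an adjusted p of 0.00212 (edgeR), without DMSO replicate 2 it was -2.42 with an adjusted p of 0.477 (edgeR), and DESeq2's Wald test on all 8 libraries gave -3.14 with an adjusted p of 0.0359. With the neutrophil marker score as a covariate, a score on which the groups do not overlap, *Rspo4* turned to 1.52, and its adjusted p ranged from 0.00212 to 0.816 over the alternatives. The study drew *Rspo4* among Wnt genes in a heat map of these libraries, so its direction here is not independent evidence.

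*Rspo3*, the R-spondin known for roles in vascular and limb development, was counted in every library, at 14.5, 15.2, 6.16, and 13.4 CPM in the DMSO-treated mice and 11.5, 4.25, 9.14, and 8.17 CPM in the SAG-treated mice. The SAG libraries lay within or below the DMSO range, and DMSO replicate 3 lay among them. Its log2 fold change was -0.57 (95% interval from -1.58 to 0.43, edgeR, adjusted p = 0.617), so that a SAG level from 0.336 to 1.34 times that with DMSO was within the interval. The antisense gene *Gm48159*, which was not counted, overlaps 13.1% of the exonic bases of *Rspo3*, and whether the counting used strand is not given in the sources used here.

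*Rspo1* and *Rspo2* were near the floor in several libraries. *Rspo1*, known for its role in ovary development, had 1, 3, 17, and 108 counts in the DMSO libraries and 0, 33, 92, and 40 counts in the SAG libraries, equal to 0.0233 to 4.10 CPM and 0 to 2.29 CPM. DMSO replicate 4 held the most *Rspo1*, the same library that held no *Rspo4*. *Rspo2*, which takes part in limb and lung development, had 358, 39, 0, and 1 counts in the DMSO libraries and 21, 52, 0, and 29 counts in the SAG libraries, and the 358 counts of DMSO replicate 1 (8.35 CPM) exceeded those of the other 7 libraries together. The log2 fold changes were -0.23 for *Rspo1*, with a 95% interval from -4.00 to 3.54, and -1.88 for *Rspo2*, with an interval from -5.97 to 2.20 (edgeR, adjusted p = 0.969 and 0.708). These intervals leave both directions possible at this depth and spread. Leaving out DMSO replicate 4 turned *Rspo1* to 2.34 and leaving out DMSO replicate 1 turned *Rspo2* to 1.03.

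**Figure D1:**
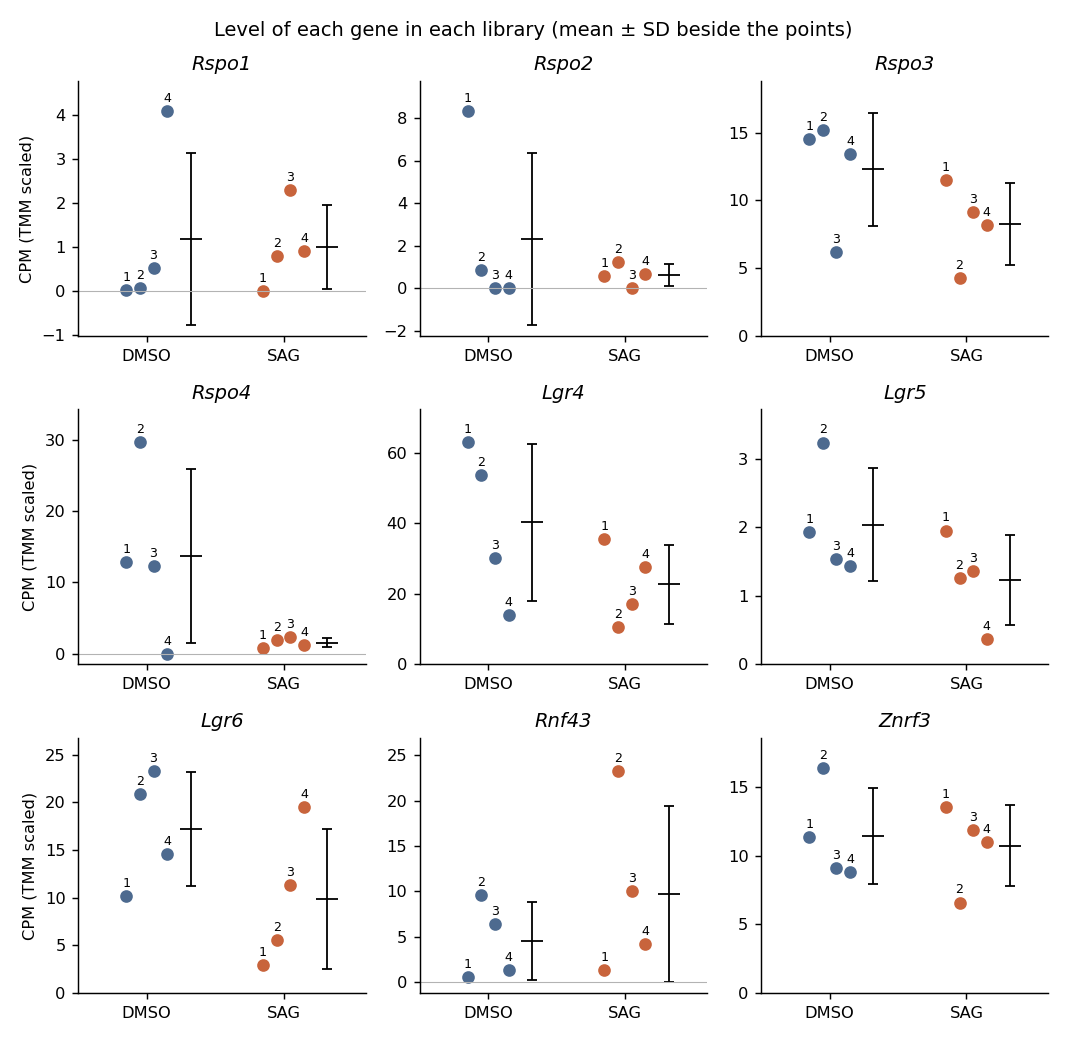
CPM of each of the 9 genes in every library, with DMSO and SAG as separate columns of points and bars for the mean and SD of 4 mice. The groups overlap in every panel, and *Rspo4* is high in 3 DMSO libraries and 0 in DMSO replicate 4.

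Among the receptors, *Lgr4*, which is broadly expressed and has known roles in skeletal development, was at 63.1, 53.7, 30.3, and 14.1 CPM in the DMSO-treated mice and at 35.6, 10.5, 17.1, and 27.7 CPM in the SAG-treated mice. DMSO replicates 1 and 2 lay above every SAG library, while DMSO replicate 4 lay below all of them but SAG replicate 2. Means and SDs over 4 mice were 40.3 ± 22.3 CPM for DMSO against 22.7 ± 11.1 CPM for SAG, and the log2 fold change was -0.83 (95% interval from -1.88 to 0.23, edgeR, adjusted p = 0.458). *Lgr6*, a marker of epithelial stem cells also known in osteoprogenitors, was at 10.1, 20.9, 23.3, and 14.6 CPM with DMSO and 2.93, 5.59, 11.3, and 19.5 CPM with SAG. SAG replicates 1 and 2 lay below the DMSO range and SAG replicates 3 and 4 within it, a 6.66-fold spread among the SAG-treated mice. For *Lgr6* the log2 fold change came to -0.81 (95% interval from -2.02 to 0.41, edgeR, adjusted p = 0.544).

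*Lgr5*, the stem cell marker of the intestinal crypt, was the lowest of the receptors, with 38 to 145 counts in the DMSO libraries and 16 to 68 in the SAG libraries. Its level was 1.94, 3.24, 1.54, and 1.44 CPM in the DMSO-treated mice and 1.95, 1.26, 1.37, and 0.365 CPM in the SAG-treated mice. SAG replicate 4 was lowest and DMSO replicate 2 highest, with the others between 1.26 and 1.95 CPM. The log2 fold change was -0.72, and the 95% interval from -2.84 to 1.40 covers both directions (edgeR, adjusted p = 0.798).

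Among the ligases, *Rnf43* varied widely between mice of the same group. It was at 0.560, 9.62, 6.43, and 1.37 CPM with DMSO and 1.38, 23.3, 10.01, and 4.20 CPM with SAG, a 17.2-fold and a 16.9-fold range. With TMM scaling *Rnf43* alone among the 9 genes had a positive log2 fold change, at 1.11 (edgeR, adjusted p = 0.654, fold from 0.501 to 9.32 within the 95% interval), and the difference between the group means was smaller than the SD with SAG. The value rested largely on SAG replicate 2, without which it was 0.21 (edgeR, adjusted p = 0.979), and without DMSO replicate 2 it was 1.80. *Znrf3*, its paralog, was the most even of the 9 genes between mice, at 11.4, 16.4, 9.12, and 8.81 CPM with DMSO and 13.5, 6.58, 11.9, and 10.97 CPM with SAG. Its log2 fold change was -0.09 (edgeR, adjusted p = 0.949), and the interval kept the SAG level between 0.513 and 1.72 times that with DMSO, the narrowest among the 9 genes.

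In all, edgeR called 0 of the 9 genes at the adjusted threshold, where 2.89% of all tested genes were called, 2.62% higher and 0.266% lower. Before adjustment, 1 of the 9, *Rspo4*, had a p under 0.05 and was lower, and 0 were higher, where 6.5% of all tested genes were lower and 9.58% higher (16.1% in either direction). DESeq2 called 1 of the 9, again *Rspo4*, and gave no adjusted p for *Rspo1*, *Rspo2*, and *Lgr5*. Of all genes to which it gave an adjusted p, 9.83% were called and 3.23% were called lower. The groups overlapped for all 9 genes, where SAG lay wholly below DMSO for 3.84% and wholly above for 7.9% of tested genes (11.7% in all). The log2 fold change was negative for 8 of the 9 genes, as it was for 54.8% of all tested genes, whose median was -0.08. With the libraries scaled to the chondrocyte markers the median of all genes moved to 1.02 and 8 of the 9 values were positive, with *Rspo4* alone negative at -1.60, which is -2.62 relative to that median, and relative to it 8 of the 9 genes were negative as before. *Rnf43* was then at 2.88, or 1.86 above the median, with an adjusted p of 0.102 (edgeR).

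**Figure D2:**
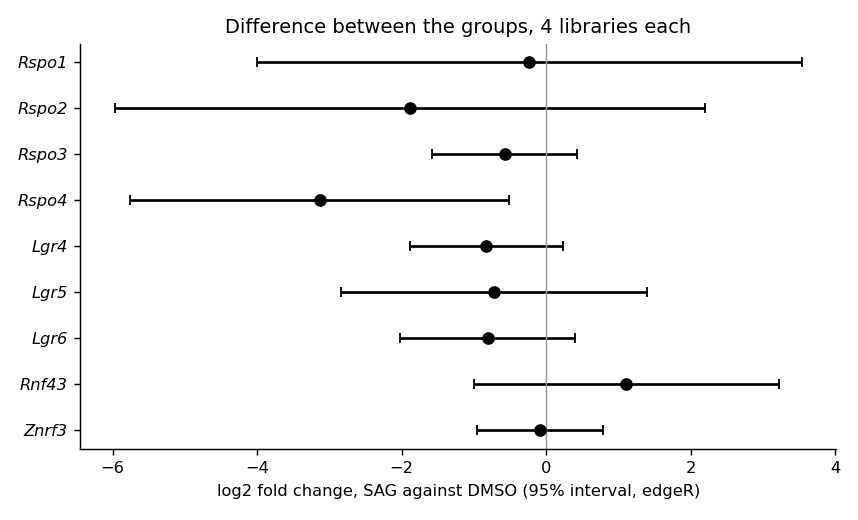
Log2 fold change of SAG over DMSO with its 95% interval for each of the 9 genes, by edgeR's quasi-likelihood test on 4 mice per group. The interval of *Rspo4* alone lies below 0, before adjustment over all genes.

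For a comparison of levels between genes, CPM was divided by the annotated exon length in kb. On this scale the mean of the group means was 5.36 for *Lgr4*, 3.33 for *Rspo3*, 3.22 for *Rspo4*, 1.98 for *Lgr6*, 1.40 for *Znrf3*, 1.08 for *Rnf43*, 0.561 for *Rspo1*, 0.287 for *Rspo2*, and 0.160 for *Lgr5*. The order pooled groups that differed: *Rspo4* was at 5.78 and *Rspo3* at 3.99 CPM per kb with DMSO, against 0.658 and 2.68 with SAG. *Rspo4* came before *Rspo3* without DMSO replicate 1, DMSO replicate 4, or SAG replicate 1, and *Rspo2* fell to 0.0908, below *Lgr5*, without DMSO replicate 1. Neighbours in this order were not separated in every mouse: *Lgr4* exceeded *Rspo3* in 6 of 8 libraries, *Rspo3* exceeded *Rspo4* in 5 of 8, *Rspo4* exceeded *Lgr6* in 3 of 8, and *Rspo2* exceeded *Lgr5* in 3 of 8. With coding length in place of exon length, *Rspo3* came before *Rspo4* and *Lgr4*, the last at 11 CPM per kb, and *Lgr5* stayed last.

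The 4 R-spondins together were at 11.8, 17.6, 7.45, and 6.46 CPM per kb in the DMSO-treated mice and 4.21, 2.82, 5.11, and 3.75 CPM per kb in the SAG-treated mice. The summed R-spondin level was thus lower in every SAG library than in any DMSO library, at 10.8 ± 5.08 and 3.97 ± 0.955 CPM per kb (SD, n = 4 each), although no R-spondin separated the groups by itself, and the groups overlapped with the libraries scaled to the chondrocyte markers (5.06 to 10.1 with DMSO and 4.05 to 8.39 with SAG). A gap of this kind, with SAG lower, was found for 3.84% of single tested genes. Without *Rspo4* the sum was 2.26 to 6.46 CPM per kb with DMSO and 2.02 to 4.14 CPM per kb with SAG, which overlap. *Rspo4* made up 46.1%, 70.9%, 69.7%, and 0% of the R-spondin sum in the DMSO libraries and 8.64%, 28.1%, 18.9%, and 13.6% in the SAG libraries. *Rspo3* made up 88.6%, 48.9%, 57.9%, and 70.4% in the SAG libraries and was the leading R-spondin in each of them, whereas in DMSO replicates 1 to 3 *Rspo4* led.

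The receptor sum was 9.56 ± 3.71 CPM per kb with DMSO and 5.42 ± 2.17 CPM per kb with SAG (SD, n = 4 each), with overlapping groups. *Lgr4* was the largest part of it in all 8 libraries per exon length (in 7 per coding length), at 67.5% ± 15.6 with DMSO and 70.1% ± 13.9 with SAG, and *Lgr5* was at most 4.5%. The ligase sum was 2.13 ± 1.003 and 2.84 ± 1.14 CPM per kb (SD, n = 4 each) and also overlapped. With the libraries scaled to the chondrocyte markers it was 0.772 to 2.03 with DMSO and 2.05 to 13.1 with SAG, without overlap and with SAG higher. That scaling moved the median log2 fold change of all tested genes to 1.02. The share of all genes without overlap under it was not counted. The value of 13.1 came from SAG replicate 2, the library with the lowest summed chondrocyte markers (17260 CPM). *Znrf3* was the larger part of the ligase sum in 6 of the 8 libraries, and its share ranged from 54.1% to 94.4% with DMSO and from 19.0% to 89.1% with SAG.

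**Figure D3:**
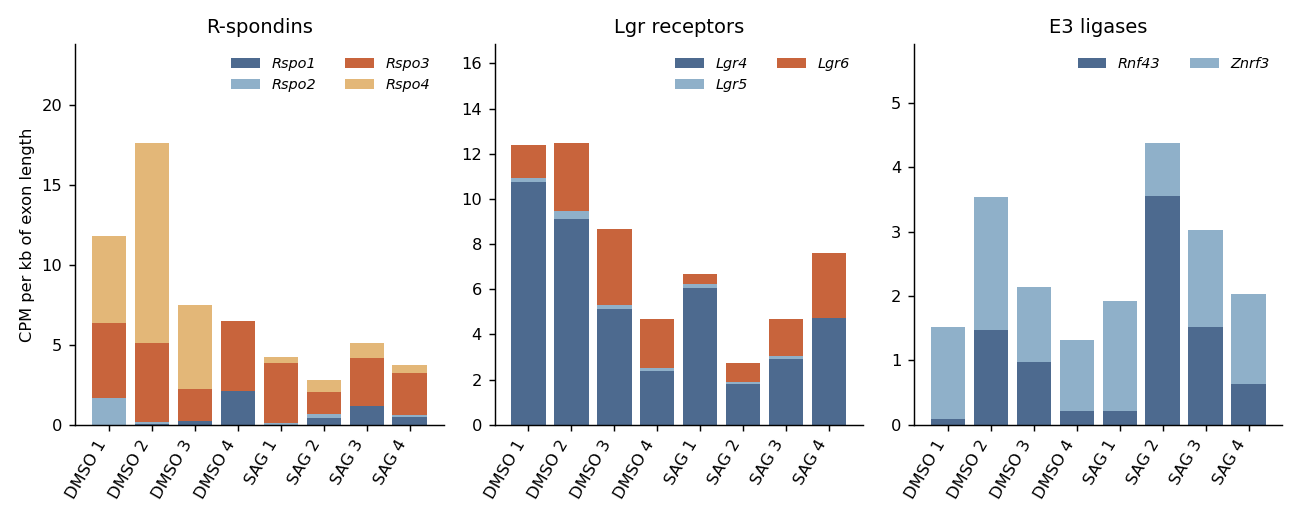
Level per kb of exon length (CPM per kb) of the R-spondins, the Lgr receptors, and the ligases in each library, stacked by gene. The R-spondin bars are lower in all 4 SAG libraries than in any DMSO library, and the *Rspo4* segment is largest in DMSO replicates 1 to 3 and missing in DMSO replicate 4.

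Across the 8 libraries the log2 CPM values of *Znrf3* ran with those of *Lgr4* (Pearson's r = 0.746) and *Rspo3* (r = 0.742), and those of *Rspo1* ran against *Lgr4* (r = -0.805) and *Rnf43* against *Rspo3* (r = -0.673). These are descriptions over 8 libraries that share treatment, cell makeup, and depth. The genes most like *Lgr4* over all libraries were *Timp3*, an inhibitor of metalloproteinases (r = 0.993), *Rcn2* (r = 0.982), and *Cdc42bpb* (r = 0.98). The genes most like *Rnf43* were *Prg2* and *Prg3*, which encode granule proteins of eosinophils (r = 0.951 each), and *Gatad2b* (r = 0.947). For *Rspo4* they were *Slc24a4* (r = 0.984), *Slc25a22* (r = 0.982), and *Tspan17* (r = 0.975), with a Spearman's rho of 0.81, 0.762, and 0.952. For *Rspo3* they were *Klf9*, *Arsk*, and *Smpdl3b* (r = 0.964, 0.955, and 0.933). Like genes were picked for the highest r among tested genes with a mean count of at least 50, so a high r is partly a result of that choice. The closest to *Lgr6* was *Ndfip1* (r = 0.98), to *Lgr5* *Chtop* (r = 0.978), to *Znrf3* *2610021A01Rik* (r = 0.963), to *Rspo1* *Hmgxb4* (r = 0.98), and to *Rspo2* *Tfpt* (r = 0.963).

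The genes that work beside these 9 were described by 4 lists, Wnt receptors, Wnt ligands, β-catenin targets, and R-spondin partners. In them edgeR called 0 genes, where 2.89% of all tested genes were called. Before adjustment 1 of 12, 1 of 8, 5 of 13, and 3 of 15 tested genes had a p under 0.05 and were lower. Of the R-spondin partners 1 was higher. Over all tested genes 6.5% were lower and 9.58% higher at this threshold (edgeR). DESeq2 called 1, 1, 2, and 2 genes, where 9.83% of all genes with an adjusted p were called. The log2 fold change was negative for 54.8% of all tested genes. Of the Wnt receptors, all 12 were tested, 8 had a negative log2 fold change, and the median was -0.20. *Lrp6*, a coreceptor that the ligases also remove, was highest at 165.8 CPM with DMSO and 128.3 CPM with SAG. *Lrp5*, the other coreceptor, was at 47.8 and 57.6 CPM, and *Fzd7*, a Frizzled receptor, at 48.0 and 32.8 CPM. *Fzd1*, a Wnt receptor chosen after its values were seen, was at 15.04 ± 4.51 CPM with DMSO and 4.67 ± 2.44 CPM with SAG (SD, n = 4 each), without overlap (log2 fold change -1.69, edgeR, adjusted p = 0.103). DESeq2's Wald test gave *Fzd1* an adjusted p of 0.0141. SAG lay wholly below DMSO for 1 of the 12 Wnt receptors and for 3.84% of all tested genes. Of 19 Wnt ligands 12 were in the table and 8 were tested, 5 with a negative value, and the median was -0.89. *Wnt5b*, a ligand of the growth plate, was highest at 20.3 CPM with DMSO and 12.9 CPM with SAG, and *Wnt11* was at 13.5 and 4.93 CPM (log2 fold change -1.45, edgeR, adjusted p = 0.168). DESeq2's Wald test gave *Wnt11* an adjusted p of 0.0413.

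Of 15 β-catenin targets 13 were tested, 11 had a negative log2 fold change, and the median was -0.71. The secreted Wnt inhibitor *Wif1* was highest at 286.1 CPM with DMSO and 203.4 CPM with SAG, with overlapping groups. *Lef1*, the transcription factor partner of β-catenin, was at 142.0 CPM with DMSO and 54.4 CPM with SAG (log2 fold change -1.39, edgeR, adjusted p = 0.0899; DESeq2, adjusted p = 0.00867). *Nkd2*, the other target that DESeq2 called (adjusted p = 0.047), had a log2 fold change of -1.66 by edgeR (adjusted p = 0.186). The R-spondin partners are heparan sulfate proteoglycans and other proteins known as partners of R-spondins, Lgr receptors, or the ligases. The list held 15 tested genes, 12 negative, with a median of -0.56. *Sdc4*, a syndecan of cartilage, was highest in DMSO-treated mice, at 1110 CPM against 553.7 CPM with SAG. *Sdc3*, another syndecan, was at 531.7 CPM with DMSO and 257.7 CPM with SAG (log2 fold change -1.05, edgeR, adjusted p = 0.0595), and *Iqgap1*, a scaffold that binds Lgr4, was at 879.4 CPM and 1386 CPM (log2 fold change 0.66, edgeR, adjusted p = 0.0829). DESeq2's Wald test gave adjusted p-values of 0.00288 for *Sdc3* and 0.0189 for *Iqgap1*. Both genes were separated between the groups in every mouse. Of the 15 tested partners, SAG lay wholly below DMSO for 1 and wholly above for 1. The shares of all tested genes were 3.84% and 7.9%. With the libraries scaled to the chondrocyte markers the medians of all 4 lists were positive, at 0.80, 0.39, 0.19, and 0.50 in the order given, below the median of 1.02 for all genes. *Lef1*, *Nkd2*, and *Wnt11* were, like *Rspo4*, among the genes the study drew from these libraries.

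**Figure D4:**
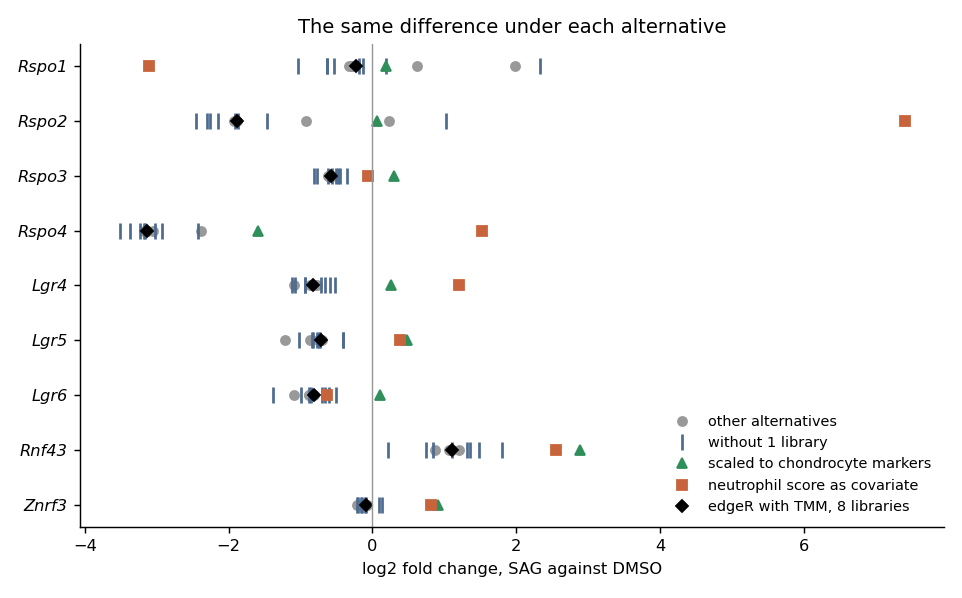
Log2 fold change of SAG over DMSO for each of the 9 genes by edgeR with all 8 libraries (diamonds), without 1 library (ticks), scaled to the chondrocyte markers (triangles), with the neutrophil covariate (squares), and under the other alternatives (circles). *Rnf43* alone lies above 0 under all 17 alternatives, though only at 0.21 without SAG replicate 2, and each of the other genes lies on both sides of 0. For *Rspo3*, *Rspo4*, *Lgr4*, *Lgr5*, and *Lgr6* only triangles or squares lie above 0. *Rspo1*, *Rspo2*, and *Znrf3* also lie above 0 under other alternatives.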

How the data were processed

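The authors deposited 1 table of whole-number counts per gene in 8 libraries, 1 per mouse, from stranded total RNA of sorted cells. Per the labels' processing notes, kallisto, DESeq2, and GRCm38 were used, with roles and versions not given in the sources used here; kallisto estimates counts, so the deposited counts may be rounded estimates. All 8 libraries were matched to their labels. Symbols were joined to GENCODE M21 for coordinates and lengths. In R 4.3.3, edgeR 4.0.16 (filterByExpr, TMM, robust quasi-likelihood test, Benjamini-Hochberg adjustment, threshold 0.05) compared SAG with DMSO on all 15421 genes that passed the filter, which included all 9 genes reported. Prior count was 2 for log2 CPM. Alternatives were DESeq2 1.42.0, limma 3.58.1 voom with sample quality weights, and other scalings and filters. A replicate block, a neutrophil covariate, and each library left out were further alternatives. Family sums on other scales were added after the data were seen. The members, lists, and tests were chosen with earlier results of these data known. From each list the called genes and the 2 to 4 highest were named, and for each member up to 3 genes of highest r with a mean count of at least 50. Further named genes were chosen after their values were seen. The p-values measure the spread between mice.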

Additional observations from a re-analysis of the deposited data

Results flagged for a closer look

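Dixon's ratio was taken in 18 groups, each the 4 libraries of 1 treatment for 1 gene. In 2 of them a library lay further from the others than the 95% critical value allows. Chance flags about 1 in 20 groups of normally distributed values. The CPM of genes near the floor need not be so distributed, and the rate for them was not tested. *Rspo1* in DMSO-treated mice had a ratio of 0.88, since DMSO replicate 4 held 4.10 CPM and the second highest mouse 0.513 CPM. *Rspo2* in DMSO-treated mice had a ratio of 0.896, since DMSO replicate 1 held 8.35 CPM and the second highest mouse 0.871 CPM. These values were not linked to a cause by any test.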

How the results depend on the processing

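Among the refitted log2 fold changes of the 9 genes, 128 kept their direction and their side of the threshold. Another 20 reversed (7 of them under a scaling that moved the median of all genes). The other 2, both of *Rspo4*, passed the threshold. Under DESeq2 *Rspo1*, *Rspo2*, and *Lgr5* had no adjusted p and were counted as not passing. The genes called over the whole table numbered 404 higher and 41 lower by edgeR and 797 and 390 by DESeq2. By limma voom with sample quality weights they numbered 995 and 398. With the libraries scaled to the chondrocyte markers they numbered 1 and 0, and with the neutrophil covariate 0 and 9. With at least 10 counts in every library 87 were lower, and *Rspo1*, *Rspo2*, and *Rspo4* were not tested. With 1 library left out the calls were 80 to 1017 higher and 4 to 343 lower. The 9 genes held 0 to 1 lower call, which was *Rspo4* under DESeq2 and without DMSO replicate 4.

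Each library came from another mouse, so the main test did not pair libraries by replicate number. After each gene's group mean was subtracted from its log2 CPM, same-numbered libraries correlated at 0.12, 0.022, 0.019, and 0.01. Of the 4, 2 correlated best with their own number. Subtracting means over 4 libraries constrains these correlations, so they cannot decide whether the numbers pair libraries. With the replicate block 334 genes were higher and 18 lower, and *Rspo1* was at 0.63 and *Rspo2* at 0.23. Values that reversed were *Rspo1* at 1.98 with voom; with chondrocyte scaling *Rspo1* 0.18, *Rspo2* 0.058, *Rspo3* 0.29, *Lgr4* 0.26, *Lgr5* 0.48, *Lgr6* 0.11, and *Znrf3* 0.91, a scaling that moved the median of all genes to 1.02 and relative to which these genes were at -0.84, -0.97, -0.73, -0.77, -0.54, -0.92, and -0.11; with the neutrophil covariate *Rspo2* 7.41, *Rspo4* 1.52, *Lgr4* 1.21, *Lgr5* 0.38, and *Znrf3* 0.82. Without DMSO replicate 1 *Rspo2* was at 1.03, without DMSO replicate 2 *Znrf3* at 0.14, without DMSO replicate 4 *Rspo1* at 2.34, without SAG replicate 1 *Rspo1* at 0.18, and without SAG replicate 2 *Znrf3* at 0.09. With 1 library left out *Rspo1* ranged from -1.04 to 2.34, *Rspo2* from -2.45 to 1.03, *Rspo4* from -3.52 to -2.42, *Rnf43* from 0.21 to 1.80, and *Znrf3* from -0.22 to 0.14. The cause was not tested.

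For Wnt receptors, Wnt ligands, β-catenin targets, and R-spondin partners in this order, the genes called were 0 each by edgeR, 1, 1, 2, and 2 by DESeq2, 1, 1, 3, and 4 by voom, and between 0 and 1, 0 and 1, 0 and 2, and 0 and 4 with 1 library left out, the highest without DMSO replicate 4. R-spondin partners held 1 call with plain library size and 1 with at least 10 counts in every library. Their medians were 0.80, 0.39, 0.19, and 0.50 with chondrocyte scaling and 0.50, 1.74, 0.21, and 0.23 with the neutrophil covariate. *Rspo1* and *Rspo2* were over 3 counts in 5 of the 8 libraries each.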
